A study of Homo sapiens with 3 samples.

Results

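The 10 genes described here encode NOXA (PMAIP1), MCL1 and 8 further proteins of the BCL2 family, BAX, BAK1, BID, BAD, BCL2L1 (BCL-XL), BCL2L11 (BIM), BCL2L12 and BCL2L13. They were taken by gene name from the deposited transcript tables, and all 10 were among the 8812 transcripts listed in all 3 libraries, of 9706 listed in any. The libraries are ribosome profiling of the human embryonic kidney line HEK293T, which expresses the large T antigen of SV40. Untreated A and Untreated B received 0 µg/mL of drug and G418 A received 500 µg/mL G418 for 24 hours, so the untreated group had 2 libraries and the G418 group 1. G418 is an aminoglycoside that binds the decoding center of the ribosome and lowers its accuracy.

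Proteins of the BCL2 family set whether the mitochondrial outer membrane becomes permeable, which releases cytochrome c and activates caspases. BAX and BAK1 form the pores, MCL1 and BCL-XL hold them back, and the BH3-only proteins NOXA, BIM, BID and BAD bind the guardians or the pore formers. Several members are held in the membrane by a hydrophobic segment at the very end of the protein, so a ribosome that reads through the normal termination codon (NTC) would add residues behind that anchor. MCL1 and NOXA proteins turn over rapidly.

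Ribosome-protected fragments (RPFs) were counted by the authors on a single transcript per gene, the one with the 3′-most stop codon. For 7 members (MCL1, BAX, BAK1, BID, BCL2L1, BCL2L11 and BCL2L13) this stop codon is also that of the MANE Select transcript, the reference isoform of the gene. For PMAIP1, BAD and BCL2L12 it is not. The sequences below show the stop codons on which the results turn, read from GENCODE 44 transcripts on GRCh38 (hg38). Each run begins with the last sense codon, and capitals mark the stop codon and, where the run reaches it, the stop codon that follows in that frame (3′TC).
PMAIP1, analysed stop (chr18:59902843-59902872, plus strand): aatTGAgaggaatgtgaaggtgcattcatg
PMAIP1, MANE Select stop (chr18:59902748-59902777, plus strand): accTGActgcatcaaaaacttgcaTGAggg
MCL1, analysed stop (chr1:150577351-150577380, minus strand): agaTAGccttactgtaagtgcaatagtTGA
BAX, analysed stop (chr19:48961631-48961660, plus strand): ggcTGAggcccccagctgccttggactgtg
BAK1, analysed stop (chr6:33573779-33573808, minus strand): tcaTGActcccaagggtgccctttggggtc
BCL2L1, analysed stop (chr20:31665925-31665954, minus strand): aaaTGAccagacactgaccatccactctac
BCL2L13, analysed stop (chr22:17727529-17727558, plus strand): aaaTAGgaggcttttcagaagagaaagaca

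Every analysed stop codon lies in the last exon of its transcript, and the bases after it are 3′UTR. Both PMAIP1 stops lie in that exon. The analysed transcript (ENST00000269518.9) has 136 codons, whereas NOXA as usually described has 54 codons (ENST00000316660.7), and the analysed stop lies 95 nt further along in another frame. Of the 411 nt of the analysed coding sequence (CDS), 40.1% are CDS of the 54-codon isoform, 95 nt are its 3′UTR and 151 nt are absent from it. Values for PMAIP1 can therefore combine RPFs from both isoforms over the longer CDS, in shares that were not measured. Its readthrough region shares 0 nt with the 21 nt that would follow readthrough of the NOXA stop. BAD was analysed at a stop 158 nt past its MANE Select stop (0 nt of region shared), and BCL2L12 at a stop 29 nt past it (94 nt shared). BID was analysed as a 241-codon isoform (MANE Select, 195 codons) and BCL2L11 as a 138-codon isoform (MANE Select, 198 codons), each with the reference stop codon. Of the analysed CDS, 81.0% for BID, 66.7% for BAD and 59.3% for BCL2L12 are CDS of the MANE Select transcript. Densities of these genes thus also span sequence outside that CDS.

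**Figure D1:**
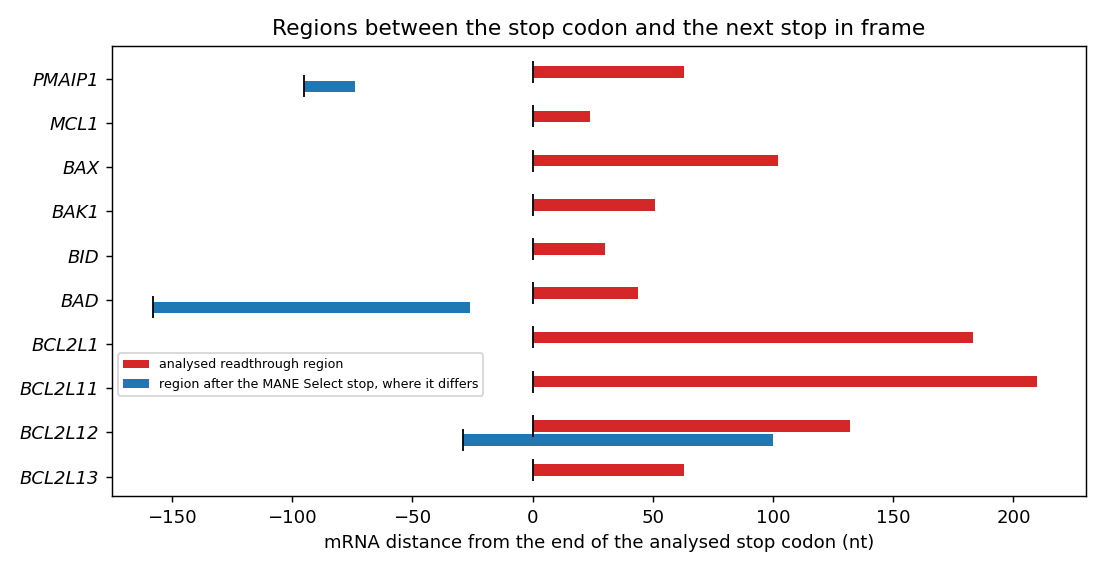
The map places the region between stop codon and next stop codon in frame for the 10 members, in nt of mRNA from the end of the analysed stop codon (red), with the region after the MANE Select stop where that stop differs (blue). PMAIP1 and BAD show blue regions that end before the analysed stop, BCL2L12 shows overlapping ones, and red regions run from 24 nt for MCL1 to 210 nt for BCL2L11 (BAD and BCL2L12 meet no further stop in frame before the transcript ends).

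The depth behind these values was 5857230 reads for Untreated A, 9477972 for Untreated B and 7216039 for the G418 library. Of 6 marker genes of HEK293 cells, 5 were listed in all libraries (PAX2 was listed in Untreated B only), and 0 of 4 markers of blood, liver and heart muscle were listed. The labels name no batch. The study describes its ribosome profiling libraries as biological replicates, and the labels do not say how the cultures of Untreated A and Untreated B were separated. Tests of CDS reads therefore take their spread from these libraries. Tests of readthrough reads cover counting error only. RPFs report ribosomes on an mRNA, so that a change in mRNA amount, in ribosomes per mRNA or in the share of cells with that mRNA cannot be told apart.

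Levels of the members were compared first, as CDS density in RPKM, which is per length of CDS with its ends left out. PMAIP1 had the highest density of the 10, with 361 and 327 RPKM in the untreated libraries A and B and 339 in G418 A. MCL1 came next with 149, 152 and 122 RPKM in that order, and BAX with 118, 126 and 109. These 3 genes stood above 85.3% of all listed transcripts in every library, whereas the other 7 members stood lower.

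The order of untreated densities was PMAIP1 (344 ± 24.2 RPKM, mean ± SD, n = 2), MCL1 (151 ± 2.14), BAX (122 ± 5.95) and BID (44 ± 6.19), with no overlap between neighbours. BCL2L13 (26.2 ± 1.53) and BCL2L12 (26.2 ± 2.53) overlapped, as did BAK1 (18.9 ± 3.93) with BAD (17.3 ± 1.8), and BCL2L11 (7.18 ± 0.724) with BCL2L1 (5.81 ± 1.53). Places of PMAIP1, BID, BAD and BCL2L12 in this order rest on a CDS only partly shared with MANE Select. PMAIP1 density was 2.42 and 2.15 times that of MCL1 in Untreated A and Untreated B, and 2.79 times in G418 A. BAX density was 7.29 and 5.81 times that of BAK1 in the untreated libraries and 2.67 times in G418 A. Both ratios of G418 A lay outside the range of the untreated pair, and neither was tested.

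**Figure D2:**
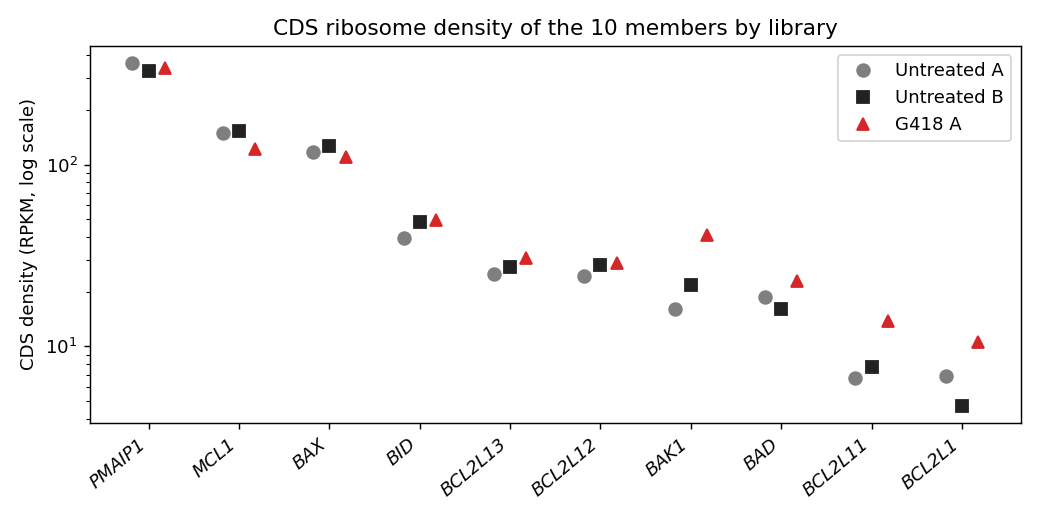
CDS density in RPKM on a log axis is plotted for each member in Untreated A (circles), Untreated B (squares) and G418 A (triangles), ordered by the untreated mean. The triangles of BAK1, BCL2L11 and BCL2L1 stand clear above the untreated points, and those of MCL1 and BAX lie below them.

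The question of whether RPFs on the CDS of these genes differed in G418 A was put to edgeR's quasi-likelihood test on CDS reads of all 8812 transcripts, with Benjamini-Hochberg adjustment. It called 0 of the 10 members, and 1 (BAK1) had an unadjusted p under 0.05. DESeq2 also called 0 members, with 1 unadjusted p under 0.05, and left the adjusted p of 6 members undefined because of low counts. Over all transcripts edgeR called 2.12% higher and 0.352% lower. The lone G418 library was assumed to vary like the untreated pair, which left 1 residual degree of freedom, so a missed call does not show that a gene was unaltered. The median prior degrees of freedom in edgeR were infinite. Its p-values thus rest on a spread shared over transcripts, not on each gene's own untreated spread.

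BAK1, a pore former, had the largest difference of the 10. It held 57 and 124 CDS reads (16.1 and 21.7 RPKM) in the untreated libraries A and B, and 178 (40.9 RPKM) in G418 A. The G418 library was thus 2.16 times the untreated mean, a log2 change of 1.11, against a log2 difference of 0.43 between the untreated libraries (edgeR adjusted p = 0.0939, unadjusted p under 0.05). Against Untreated A alone the log2 change was 1.34 and against Untreated B alone 0.91. BAK1 was the only member with a log2 change of at least 1, which 3.47% of all transcripts reached.

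BCL2L11 and BCL2L1 came next, both from few reads. BCL2L11, which encodes the BH3-only protein BIM, held 15, 28 and 38 CDS reads in Untreated A, Untreated B and G418 A, or 6.67, 7.69 and 13.7 RPKM. Its log2 change was 0.93 (edgeR adjusted p = 0.563). BCL2L1, which encodes the guardian BCL-XL, held 27, 30 and 51 CDS reads, or 6.89, 4.73 and 10.6 RPKM. Its log2 change was 0.86 (edgeR adjusted p = 0.561), and its untreated libraries differed by 0.54 on the log2 scale. In both genes G418 A lay above both untreated libraries without passing the test.

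MCL1 went the other way. It held 891, 1471 and 895 CDS reads in Untreated A, Untreated B and G418 A, and its density in G418 A was 0.807 times the untreated mean. The log2 change was -0.31 (edgeR adjusted p = 0.477), -0.29 against Untreated A and -0.32 against Untreated B, while the untreated libraries differed by 0.03. With edgeR's TMM factors, chosen from the bulk of transcripts, the log2 change was -0.41 (edgeR adjusted p = 0.393, unadjusted p under 0.05). BAX, with 376, 652 and 431 CDS reads, had a log2 change of -0.15 (edgeR adjusted p = 0.876).

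PMAIP1 density in G418 A lay between the untreated libraries (800, 1172 and 925 CDS reads, log2 change -0.02, edgeR adjusted p = 0.983). BID, the BH3-only protein cut by caspase-8, had 39.7, 48.4 and 49.8 RPKM, and BAD, a BH3-only protein regulated by phosphorylation, had 18.6, 16.0 and 22.9 RPKM. BCL2L12 had 24.4, 28 and 28.9 RPKM and BCL2L13, a mitochondrial protein also known for binding the autophagy machinery, 25.2, 27.3 and 30.5 RPKM. Log2 changes of these 4 ran from 0.14 (BCL2L12) to 0.41 (BAD), with edgeR adjusted p of 0.835 or more.

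In total 7 members had a G418 density above both untreated libraries and 2 below both, where 47.3% and 25.4% of all transcripts did so. The median log2 change of the members was 0.20, and that of all transcripts 0.10. TMM factors shift every log2 change by -0.10 and DESeq2 size factors by -0.11, and no member changed sign under either. Among all transcripts these scalings lowered the share of calls that were higher from 85.8% to 75.2% and 75.4%. It was 67.5% with the higher minimum mean of 500 CDS reads, and with DESeq2 most calls were lower (8 higher and 13 lower, 38.1% higher).

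**Figure D3:**
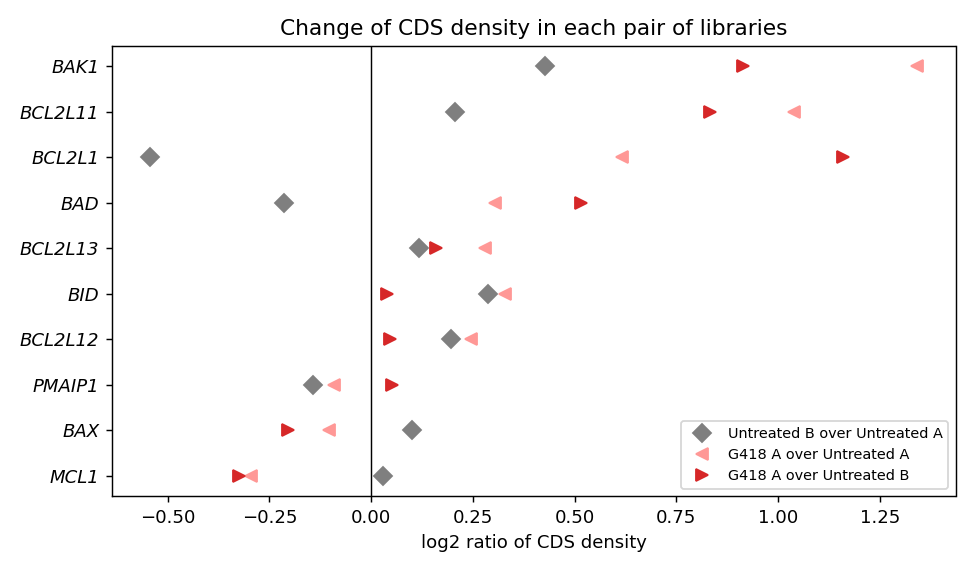
Log2 ratios of CDS density are plotted per member for Untreated B over Untreated A (diamonds) and G418 A over each untreated library (triangles). Both triangles of BAK1, BCL2L11 and BCL2L1 lie at 0.62 or more, beyond the diamond, both of MCL1 lie near -0.3, and those of PMAIP1 fall on either side of 0.

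Reads in the 5′UTR of 3 members were looked at after the CDS values were seen, and are given as a description. Fisher's exact test of 5′UTR against CDS reads, run for 9 members, passed against both untreated libraries for BAK1 only, as lower in G418 A. PMAIP1 and BCL2L11 also passed as lower against Untreated B, and missed against Untreated A. The test covers counting error only. Its share of calls over all transcripts was not recorded, so the BAK1 call cannot be set against a background. Of the members not shown, BCL2L13 went the other way, with 5′UTR reads at 0.95%, 2.98% and 5.73% of CDS reads (Untreated A, Untreated B, G418 A). BAK1 had 45 and 82 5′UTR reads in the untreated libraries A and B and 53 in G418 A, or 7.68, 8.65 and 7.34 RPM. Its CDS reads were 9.73, 13.1 and 24.7 RPM in the same order. The 5′UTR level was close in the 3 libraries, so the lower proportion of 5′UTR to CDS reads in G418 A (29.8%, against 78.9% and 66.1%) restates the higher CDS count.

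BCL2L11 had 17, 57 and 13 5′UTR reads, more than its CDS reads in both untreated libraries (113% and 204%) and 34.2% of them in G418 A. PMAIP1 had 235, 447 and 208 5′UTR reads, or 40.1, 47.2 and 28.8 RPM, so its 5′UTR level in G418 A lay below both untreated libraries while its CDS density lay between them. With whole mRNA reads in place of CDS reads, the log2 change of BCL2L11 was 0.11 and that of BAK1 0.74. BAD was left out, because its 5′UTR has a negative length in the deposited tables once its ends are trimmed, and all 33 or 34 transcripts of that kind in each library list at least as many 5′UTR as CDS reads.

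**Figure D4:**
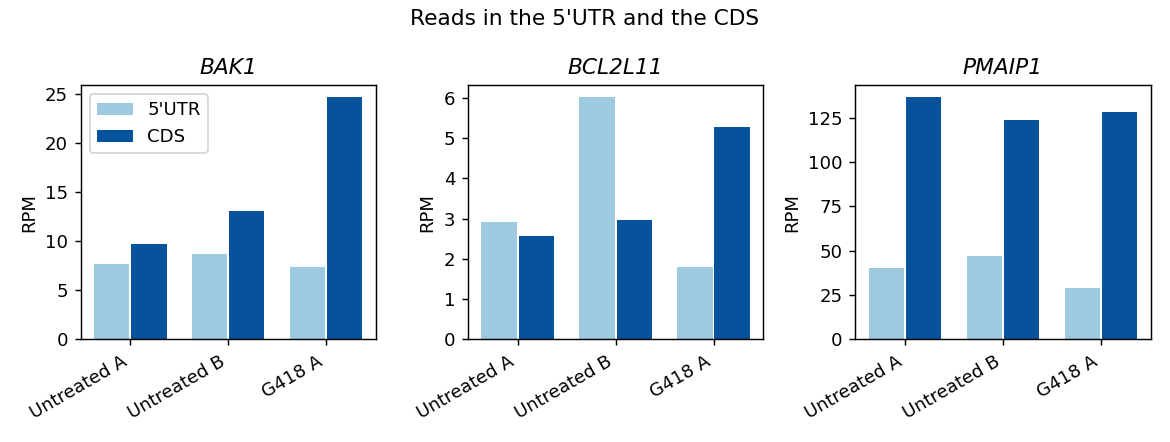
Bars give RPM in the 5′UTR (light) and the CDS (dark) of BAK1, BCL2L11 and PMAIP1 in the 3 libraries, each panel with its own axis from 0. BAK1 keeps a 5′UTR level between 7.34 and 8.65 RPM while its CDS bar is higher in G418 A, and in BCL2L11 the 5′UTR bars exceed the CDS bars in the untreated libraries only.

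Readthrough was measured by the ribosome readthrough score (RRTS), the RPF density between the NTC and the 3′TC over the CDS density, printed here as a percent. It was above both untreated libraries in G418 A for all 10 members, as it was for 59.9% of all transcripts. Each G418 count was tested against each untreated library by Fisher's exact test (two-sided) of readthrough against CDS reads, adjusted over 8812 transcripts, and called when both passed at 0.05, which compares libraries and covers counting error only. PMAIP1 alone of the 10 was called, where 19.2% of all transcripts were called higher. Between the untreated libraries the test called 0 members and 6 of 8812 transcripts.

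At the analysed PMAIP1 stop the libraries held 26, 33 and 72 readthrough reads (Untreated A, Untreated B, G418 A). RRTS was 21.6% (95% exact binomial interval 14.0 to 31.8), 18.7% (12.8 to 26.4) and 51.6% (40 to 65.7). The G418 interval lay above both untreated ones (Fisher's exact test, adjusted p = 0.000967 against Untreated A and 9.35e-06 against Untreated B). The untreated scores were already above those of 95.9% and 96.3% of the 5684 transcripts that meet the study's minimum of reads, applied here to the mean of CDS reads. Over the whole 3′UTR of PMAIP1 the density was 8.86%, 7.89% and 12.7% of CDS density. These reads were on the 3′UTR of the analysed transcript, whose stop codon is not that of the 54-codon NOXA. Reads were not assigned to an isoform, and both stops lie in the same exon. Whether these reads followed the analysed stop or came from the 54-codon isoform was not tested.

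MCL1 has a UAG stop followed by C, and its region of 18 counted nt is the shortest of the 10. It held 7, 6 and 18 readthrough reads, for RRTS of 44.5% (17.8 to 92.1), 23.1% (8.47 to 50.4) and 114% (67.2 to 181). The G418 value exceeded both untreated values, and the test passed against Untreated B and missed against Untreated A (Fisher's exact test, adjusted p = 0.00218 and 0.162). Of the region, 5 of 18 nt are CDS of the 271-codon isoform of MCL1, so some of these reads may stem from that isoform, which was not tested. Of 341 other transcripts with the same UAGC signal, 95% had a lower RRTS in G418 A, with a median of 18.6%.

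BAX held 12, 11 and 20 readthrough reads over a region of 96 counted nt, for RRTS of 18.2% (9.30 to 32.1), 9.60% (4.77 to 17.3) and 26.4% (16.0 to 41.3). The difference passed against Untreated B and not against Untreated A (Fisher's exact test, adjusted p = 0.0315 and 0.840). BAX in G418 A stood above 59.5% of the 1053 other transcripts with UGAG, but above 96.1% and 93.7% of them in the untreated libraries. PMAIP1 also carries UGAG and stood above 82.0% in G418 A.

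The remaining 7 members had few readthrough reads. BCL2L11 held 3, 0 and 9, for RRTS of 37.6%, 0% and 44.6%, and BCL2L12 held 0, 2 and 4, for 0%, 5.99% and 15.2%. BAK1, BID, BAD, BCL2L1 and BCL2L13 held 0 in both untreated libraries and 3, 1, 2, 1 and 2 in G418 A, for RRTS of 22.6%, 11.6%, 31.8%, 7.41% and 15.9%. In these 5 the untreated zeros allow, at 3 reads, an RRTS of up to 35.7% to 72.5% in Untreated A and 20.3% to 52.0% in Untreated B, and every G418 value was below its own limits. Increased readthrough of these 5 was therefore not detectable at this depth.

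Several of these genes carry UGAC, the signal with a median RRTS of 38.7% in G418 A over 561 transcripts. Of its members here, BCL2L11 (44.6%) lay above that median, and BAK1 (22.6%), BCL2L12 (15.2%) and BCL2L1 (7.41%) lay below it, above 33.3%, 25.2% and 18.5% of the transcripts with this signal. Intervals reached from 4.61% to 67.1% for BAK1 and from 0.184% to 43.2% for BCL2L1, so both include the median.

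**Figure D5:**
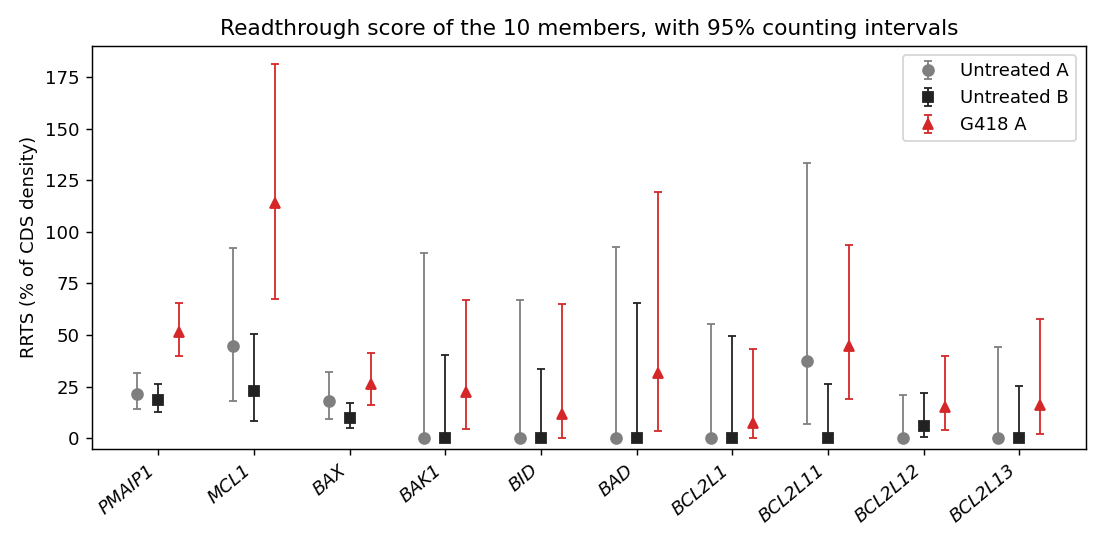
RRTS in percent of CDS density is plotted with 95% exact binomial counting intervals for Untreated A (circles), Untreated B (squares) and G418 A (triangles). All 10 triangles lie above both untreated points, and PMAIP1 has the only G418 interval clear of both untreated ones.

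The C-terminal ends were ranked by hydropathy, as the highest Kyte-Doolittle mean of 19 residues within the last 40, computed from the translated analysed transcripts. BCL2L13 (2.63), BAK1 (2.44), MCL1 (2.17), BCL2L1 (1.68) and BAX (1.39) had the most hydrophobic ends. The other 5 ran from 0.25 (BID) to 0.75 (BCL2L11). This split is a rank without a threshold for an anchor, so it does not show which members have or lack one. All 5 members with the most hydrophobic ends were analysed at their MANE Select stop. Readthrough to the 3′TC would add a residue at the stop codon itself. The codons behind it would add 7 further residues to MCL1, 16 to BAK1, 20 to BCL2L13, 33 to BAX and 60 to BCL2L1. The mean hydropathy of these further residues was -0.87 for MCL1, -0.52 for BCL2L1, 0.06 for BCL2L13, 0.24 for BAK1 and 0.30 for BAX. Each lay below the window value of the same protein. That order is favoured in advance, because a mean over all added residues is set against the highest of many windows.

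Pooled over the 5 members with the most hydrophobic ends, observed over expected reads gave an RRTS of 18.7% (19 reads) and 9.85% (17 reads) in the untreated libraries A and B. With G418 it was 33.6% (44 reads). MCL1 and BAX supplied all the untreated reads of this pool and 38 of the 44 in G418 A. The other 5 members gave 18.6% (29 reads), 14.5% (35 reads) and, in G418 A, 43.8% (88 reads, 72 of them from PMAIP1). Over all 10 members the pool was 18.6%, 12.6% and 39.8% (interval in G418 A 33.2 to 47.4, counting error only), beside 1.67%, 1.34% and 21.6% over all transcripts. PMAIP1 held 72 of the 132 readthrough reads in G418 A, and without it the pool was 31.2%.

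The rest of the pathway was read from a list of 74 names in 6 groups, of which 44 were listed in all 3 libraries. EdgeR called 0 of the 44 (7 had an unadjusted p under 0.05), and DESeq2 called 0 (3 unadjusted). Their median log2 change was 0.04, with 23 above 0 and 21 below. Readthrough was called higher for 11 of the 44, beside the 19.2% of all transcripts.

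Of other BCL2 family genes 6 of 15 were listed. BIK, a BH3-only gene, had 7.59, 10.6 and 2.77 RPKM (45 CDS reads at most, log2 change -1.71, edgeR adjusted p = 0.248), and HRK 1.41, 1.30 and 3.99 RPKM from at most 7 reads (1.56, edgeR adjusted p = 0.496). Among 5 listed regulators of PMAIP1 and BBC3 transcription, DDIT3 (CHOP), a stress-response factor, had 5.01, 5.53 and 18.9 RPKM (14, 25 and 65 CDS reads, log2 change 1.84, edgeR adjusted p = 0.0595). TRIB3, a target of that response, had a log2 change of 0.64 from 33, 75 and 76 CDS reads. Of the 5 regulators 4 lay above 0. ATF3 lay below, with 148, 81.7 and 97.8 RPKM (log2 change -0.23), so its G418 density fell between the untreated libraries. DDIT3 had the largest difference of the 44 and did not pass.

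Of 12 genes for MCL1 turnover 4 were listed, with log2 changes of 0.56 for GSK3B and 0.44 for GSK3A, kinases that mark MCL1 for degradation (edgeR adjusted p = 0.412 and 0.314). Readthrough was called for 1 of these 4, RNF7, a subunit of ubiquitin ligases, with 4, 5 and 96 readthrough reads (RRTS 6.65%, 6.20% and 146%). Of 21 genes for caspase activation 17 were listed, with log2 changes of -0.62 for CASP9 and -0.38 for AIFM1 (edgeR adjusted p = 0.651 and 0.319), and readthrough was called for 6 of the 17, beside 19.2% of all transcripts (VDAC3, AIFM1, CASP2, BIRC5, DFFA and BIRC6). Of 9 genes for the insertion of tail-anchored proteins 5 were listed, with 0.51 for GET4 and -0.21 for UBL4A (edgeR adjusted p = 0.352 and 0.897), and readthrough was called for BAG6. None of these groups had a CDS call.

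Of 11 other tail-anchored proteins of the mitochondrial outer membrane 7 were listed, with log2 changes of 0.46 for RHOT1 and 0.24 for TOMM6 at most. Readthrough was called for 3 of the 7, beside 19.2% of all transcripts. TOMM5, a small subunit of the import complex, held 13, 5 and 46 readthrough reads (RRTS 17.2%, 4.32% and 48.5%), TOMM6 held 5, 0 and 112 (1.53%, 0% and 25.8%), and FIS1 held 2, 0 and 20 (3.30%, 0% and 27.4%). RHOT1 held 0, 0 and 5 (46.8% in G418 A) and was not called. The other members of this group were TOMM22, TOMM7 and RHOT2. TOMM22 held 3, 0 and 2 readthrough reads (RRTS 15.7%, 0% and 9.13%), so its G418 score lay between the untreated ones. TOMM7 held 10, 10 and 12 (8.35%, 6.88% and 8.73%), and RHOT2 held 0 in every library.

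Transcripts nearest to PMAIP1 in log2 CDS density over the 3 libraries were VPS29, UQCRFS1 and ATP6AP2, at Euclidean distances of 0.0496, 0.0757 and 0.0833. Those nearest to MCL1 were RUVBL1, AAMP and PSMD2, at 0.104, 0.118 and 0.123.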

How the data were processed

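Ribosome profiling libraries of HEK293T cells (2 untreated, 1 with G418) were used as deposited. Per the study's methods and the submitters' processing notes, the authors collapsed reads sharing a molecular identifier, removed noncoding RNA, aligned with STAR to hg38 with GENCODE annotation and assigned fragments to 1 transcript per gene. The authors deposited RPM values, RPKM densities, whole-number counts and, as a ratio, RRTS and 3′UTR occupancy. The first 6 nt after the stop codon are left out, and only transcripts with at least 1 RPKM of CDS density are listed.

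All deposited RPM values came out as whole reads (100% in each library), so reads were recovered from them and used in place of the deposited counts, which were 1 lower for 9080 of 9099 transcripts in Untreated A. CDS reads were tested with edgeR 4.0.16 (quasi-likelihood, library size as the reads behind the RPM scale, no filter) and DESeq2 1.42.0 in R 4.3.3, after a check on simulated data. Fisher's exact test used scipy 1.17.1. Intervals are exact Clopper-Pearson (95%) and, like the limits of 3 reads, cover counting error only. Stop codons and protein ends came from GENCODE 44 transcripts, matched by ID for 8624 of 8812 transcripts and all 10 members; BCL2L12 has another CDS length there. Kyte-Doolittle windows were read from translated transcripts, since no protein table was used here. Members, lists and tests were chosen with earlier results of these data known. All members were named, and of each list the genes called by edgeR, the 2 with the largest CDS change and, for tail-anchored proteins, the 2 with the highest RRTS among those with at least 5 reads; FIS1, TOMM22, TOMM7, RHOT2, BAG6, RNF7 and the called caspase genes were named after their values were seen. Alternatives covered scaling, filters, tool, counts, region and each untreated library.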

Additional observations from a re-analysis of the deposited data

Results flagged for a closer look

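MCL1 had reads in the part of its 3′UTR behind the 3′TC, which no comparison above used. There were 5 and 8 such reads in the untreated libraries A and B, against 39 in G418 A, a density of 0.205%, 0.199% and 1.59% of CDS density. Fisher's exact test of these reads against CDS reads, chosen after the values were seen and adjusted over 8095 transcripts, passed against both untreated libraries (adjusted p = 5.79e-06 and 1.94e-08). It called 8.84% of those transcripts higher and 1 of the 8 members that have such a region. PMAIP1, which was not called, had 102, 134 and 141 reads there, at 7.70%, 6.90% and 9.20% of CDS density.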

How the results depend on the processing

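The count of 0 members and 0 listed pathway genes with a CDS call was the same with TMM factors, size factors, DESeq2, 2 minimum means of CDS reads (6 and 2 members left to test) and the deposited counts. The number of members with readthrough called was 2 with the untreated reads summed and 2 with all 3′UTR reads (MCL1 beside PMAIP1 in both), from 1 to 3 when an untreated library was left out (3 without Untreated A, adding MCL1 and BAX), and 0 among the 7 members analysed at their MANE Select stop, an alternative added after seeing the data. The pooled RRTS in G418 A was 49.6% from summed densities, 31.2% without PMAIP1, 33.8% over those 7 members and 5.77% with all 3′UTR reads. Over all transcripts edgeR called 218, or 133 with TMM, 122 with size factors, 40 at the higher minimum mean (500 CDS reads) and 21 with DESeq2. Only PMAIP1 changed the sign of its CDS change without 1 untreated library (0.05 without Untreated A). No paired analysis was possible because the groups share only 1 replicate letter and G418 has 1 library. With means of 27.0, 36 and 62.7 CDS reads, BCL2L11, BCL2L1 and BAD are the least precise members.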
